A study of Mus musculus with 69 samples.

Results

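The Fc gamma receptors, their adaptors and the kinase Syk were followed in mouse lung after instillation of nano-TiO2. The 7 genes were Fcgr1, Fcgr2b, Fcgr3, Fcgr4, Fcer1g, Tyrobp and Syk, chosen by name among the array probes whose accession maps to a RefSeq symbol, and they make up 7 of the 18656 genes tested and 9 of the 41174 probes. Whole lungs came from female C57BL/6 mice that had received 1 intratracheal instillation of 18, 54 or 162 µg of the TiO2 material NRCWE-025 or NRCWE-030, or of the serum-containing vehicle alone, and were collected on day 1 or day 28. The mice were 5 to 7 weeks old when obtained, and RNA came from a small frozen piece of lung. There were 69 arrays of 1 mouse each in 14 groups, 5 per group and 4 for 162 µg NRCWE-025 on day 28. Both materials were compared with the same 5 vehicle arrays of their day. Levels are log2 ratios of lung RNA (Cy5) over a pooled mouse reference RNA (Cy3), so a level of 0 is equal signal in both, and levels of different genes are not compared.

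Fc gamma receptors bind the constant part of IgG and couple antibody-coated particles and immune complexes to phagocytosis and inflammatory signalling in macrophages, neutrophils and other myeloid cells. Fcgr1, Fcgr3 and Fcgr4 are activating receptors that signal through the common gamma chain, Fcer1g, whose tyrosine motif recruits the kinase Syk. Fcgr2b is the inhibitory receptor and carries its own inhibitory motif. Tyrobp (DAP12) is a related adaptor for other myeloid and natural killer cell receptors. In lung, these genes are used by alveolar macrophages and by recruited monocytes and neutrophils.

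All 9 probes were well above background in both colours on 69 of 69 arrays, and none was saturated. Fcgr2b had 3 probes and the other genes 1 each. One Fcgr2b probe was spotted 10 times per array, and its spots varied with a median SD of 0.072 on the log2 scale, against a median SD of 0.34 between arrays of a group, which holds mouse, labelling, array and slide variation together. Every other probe was spotted once per array, so its spot variation was not measured. Between 49.1% and 72.8% of probes were well above background in the lung channel. Fcgr2b and Fcgr3 are close paralogues, and probe sequences were not used here, so shared hybridisation between them was not tested. In bulk lung, more cells of a type and more RNA per cell cannot be told apart.

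Upstream sequence is shown for the receptors and the adaptor that rose together at the highest NRCWE-030 dose on day 1, and for Fcgr4, which lies between Fcgr2b and Fcgr3 on chromosome 1 and did not pass the test. Each run is the 250 bases before the RefSeq start, 5′ to 3′ on the strand of the gene (build GRCm38.p6). The capitals mark 2 motifs searched on both strands, the interferon-gamma activated site pattern TTCNNNGAA and the PU.1-type core GAGGAA, which reads TTCCTC on the other strand; the 2 motifs do not overlap in these runs.
Fcgr1, chr3:96293970-96294219, minus strand: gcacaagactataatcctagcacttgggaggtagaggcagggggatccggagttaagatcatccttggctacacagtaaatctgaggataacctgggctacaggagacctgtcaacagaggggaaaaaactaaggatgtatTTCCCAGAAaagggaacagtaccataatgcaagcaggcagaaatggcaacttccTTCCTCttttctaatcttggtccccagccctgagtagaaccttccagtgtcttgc
Fcgr2b, chr1:170976072-170976321, minus strand: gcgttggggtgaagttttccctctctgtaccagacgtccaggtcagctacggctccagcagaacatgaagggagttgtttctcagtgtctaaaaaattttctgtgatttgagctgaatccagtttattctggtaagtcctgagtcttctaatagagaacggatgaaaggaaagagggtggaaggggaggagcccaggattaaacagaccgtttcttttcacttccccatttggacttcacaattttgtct
Fcgr3, chr1:171059404-171059653, minus strand: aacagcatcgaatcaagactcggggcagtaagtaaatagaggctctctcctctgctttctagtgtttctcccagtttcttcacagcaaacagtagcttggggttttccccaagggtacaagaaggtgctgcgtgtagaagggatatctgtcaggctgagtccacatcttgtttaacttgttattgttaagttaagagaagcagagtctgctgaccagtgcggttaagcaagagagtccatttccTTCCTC
Fcgr4, chr1:171018676-171018925, plus strand: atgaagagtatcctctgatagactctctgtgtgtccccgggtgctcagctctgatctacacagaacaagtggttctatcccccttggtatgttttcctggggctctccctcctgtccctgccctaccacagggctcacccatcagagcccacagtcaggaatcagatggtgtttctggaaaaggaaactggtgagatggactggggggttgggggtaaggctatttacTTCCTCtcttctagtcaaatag
Fcer1g, chr1:171234350-171234599, minus strand: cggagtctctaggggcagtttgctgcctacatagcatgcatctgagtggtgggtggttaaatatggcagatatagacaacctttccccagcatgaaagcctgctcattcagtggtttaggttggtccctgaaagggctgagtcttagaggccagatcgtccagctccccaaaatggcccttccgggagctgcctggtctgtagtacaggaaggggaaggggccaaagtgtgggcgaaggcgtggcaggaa
Of the 5 genes shown, Fcgr1 alone held TTCNNNGAA, at bases 109 to 101 before the start, and this pattern was found in 7.02% of 32851 RefSeq promoter entries of the same length. GAGGAA on either strand was found in the runs of Fcgr1, Fcgr3 and Fcgr4, against 23.3% of all entries. The runs of Fcgr2b and Fcer1g held neither pattern. A match describes letters only. Fcgr3 has a start a few bases away that gives an overlapping run, shown once, Syk has 2 entries that are not shown, and Tyrobp has none in the table.

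On day 1, 162 µg NRCWE-030 raised Fcgr1, Fcgr2b, Fcgr3 and Fcer1g, that is the high-affinity, the inhibitory and a low-affinity IgG receptor, and the gamma chain used by the activating ones. The rise was 1.93-fold for Fcgr1, 1.78-fold for Fcgr2b, 1.67-fold for Fcgr3 and 1.56-fold for Fcer1g. These were 4 of 7 genes called (limma, Benjamini-Hochberg adjusted p under 0.05 over all genes), where 1.71% of all genes were called and 1.23% were called higher. The 7 genes, and the gene lists used further on, were chosen with earlier results of these data known, so such counts test no enrichment. Fcgr4, Tyrobp and Syk did not pass.

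Fcgr1 stood at -0.67, -0.73, -0.61, -0.17 and -0.23 in the 5 day 1 controls and at 1.06, 0.63, 0.24, 0.00 and 0.40 after 162 µg NRCWE-030. The 2 groups did not overlap. The log2 change was 0.95 ± 0.20 (SE, 95% interval 0.53 to 1.37, limma adjusted p = 0.0177).

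Fcgr2b stood at 0.20, -0.45, -0.20, -0.15 and -0.15 in the controls and at 0.99, 1.02, 0.40, 0.24 and 0.77 in the treated lungs. The lowest treated array was just above the highest control. The log2 change was 0.84 ± 0.16 (SE, 95% interval 0.51 to 1.16, limma adjusted p = 0.00848). Its 3 probes gave log2 changes of 0.84, 0.78 and 0.94, and tested singly among all probes their adjusted p-values were 0.0583, 0.0613 and 0.00315, so that 2 of the 3 did not pass alone.

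Fcgr3 stood at 0.23, 0.05, 0.21, 0.55 and 0.42 in the controls and at 1.32, 1.27, 0.68, 0.76 and 1.14 in the treated lungs, again without overlap. Its log2 change was 0.74 ± 0.16 (SE, 95% interval 0.41 to 1.07, limma adjusted p = 0.0185). The adaptor Fcer1g stood at -0.85, -0.05, 0.08, -0.01 and 0.31 in the controls and at 0.46, 0.75, 0.35, 0.48 and 0.68 in the treated lungs. One control array was far below the other 4, and the groups did not overlap. The change of Fcer1g was 0.64 ± 0.16 (SE, 95% interval 0.31 to 0.97, limma adjusted p = 0.0419), close to the threshold. Tested among all probes, its 1 probe did not pass (limma adjusted p = 0.0583). The single probes of Fcgr1 and Fcgr3 passed in that test (limma adjusted p = 0.0251 and 0.0263). For Fcgr1, Fcgr2b, Fcgr3 and Fcer1g every treated array was above every control, which held for 2.89% of all genes.

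Fcgr4, the other activating receptor that pairs with Fcer1g, stood at 0.41, 0.38, 0.44, 0.83 and 0.96 in the controls and at 0.05, 0.41, 0.51, 0.51 and 0.61 after 162 µg NRCWE-030. The groups overlapped, and the log2 difference was -0.19 ± 0.14 (SE, 95% interval -0.48 to 0.11, limma adjusted p = 0.671). Tyrobp differed by 0.04 (95% interval -0.28 to 0.36) and Syk by 0.19 (95% interval -0.12 to 0.50). The changes of the genes were also set against each other within arrays, for all 21 pairs, by a two-sided exact permutation test over the 10 arrays, whose smallest possible p is 0.00794. The change of Fcgr4 was lower than that of Fcgr3 by 0.93 and lower than that of Fcer1g by 0.83, each at an exact permutation p of 0.00794, not adjusted over the pairs. Fcer1g exceeded Tyrobp by 0.60 (exact permutation p = 0.00794), whereas Fcgr1 and Fcgr2b differed by 0.11 (exact permutation p = 0.571).

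**Figure D1:**
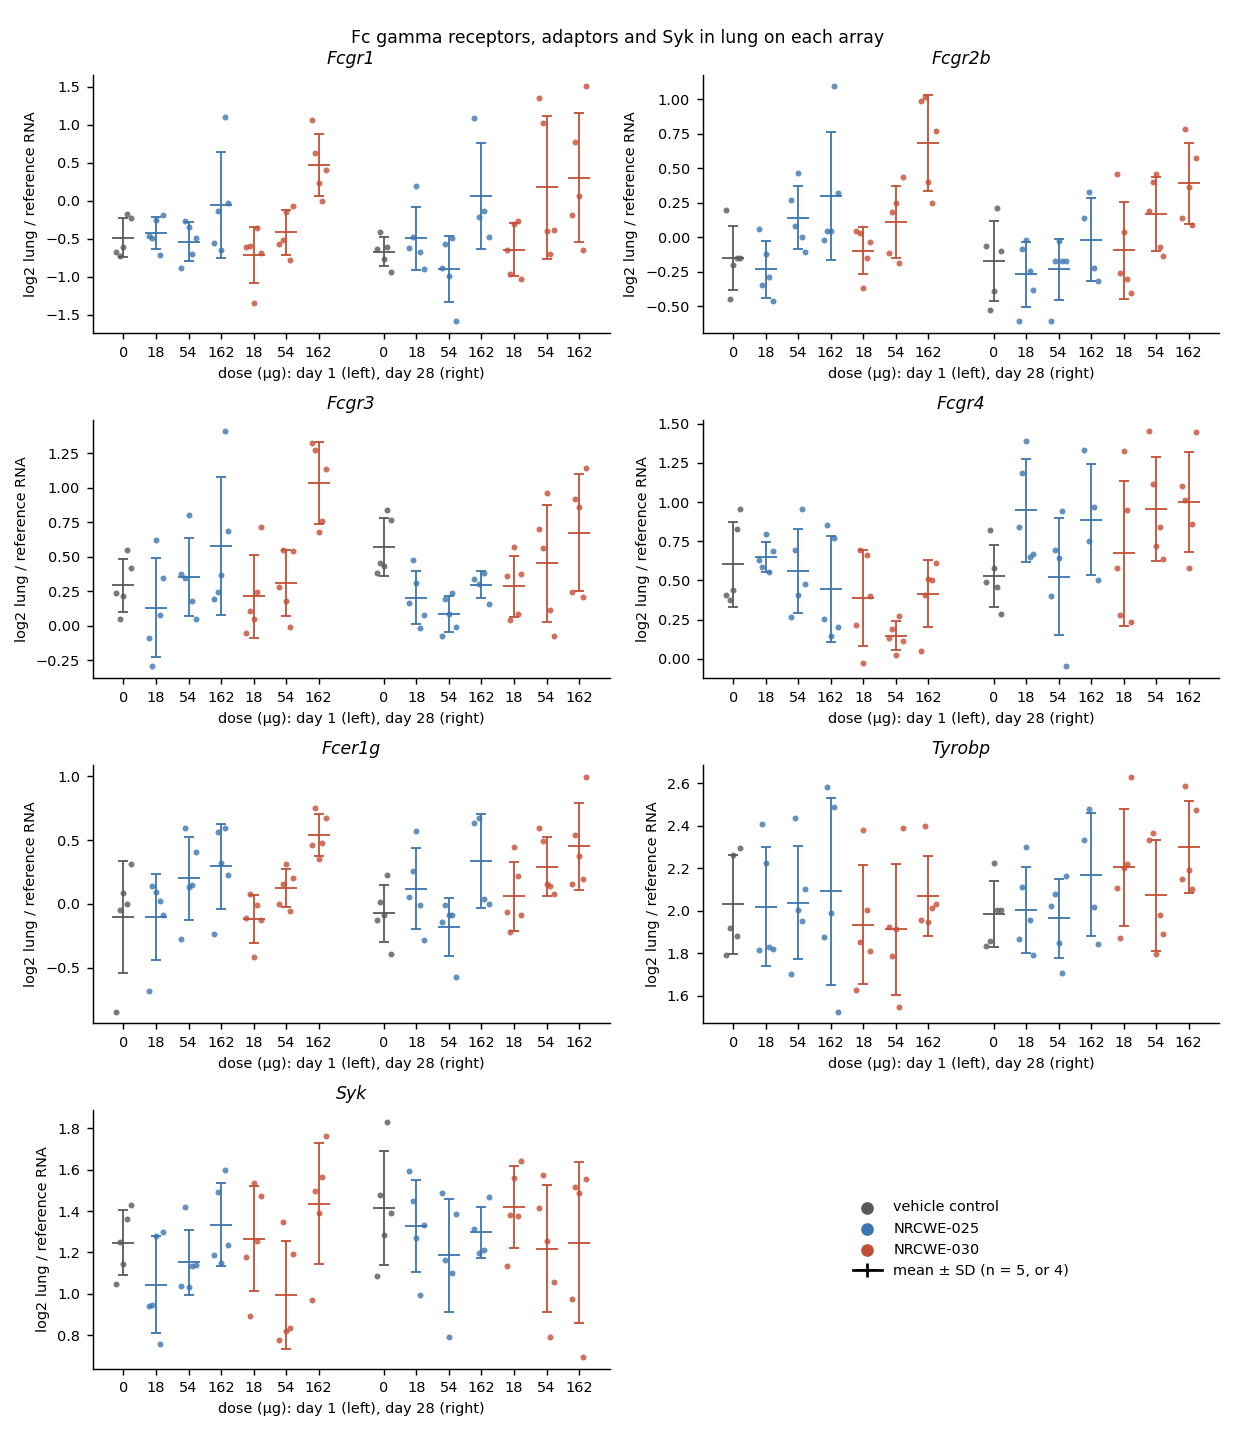
Log2 lung over reference RNA on every array for the 7 genes, against dose in µg, with day 1 at left and day 28 at right of each panel. Points are arrays, bars are mean ± SD; at 162 µg NRCWE-030 on day 1 the 5 points of Fcgr1, Fcgr2b, Fcgr3 and Fcer1g lie above all 5 controls.

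The F-test over the 3 NRCWE-030 doses on day 1 called Fcgr1 (limma adjusted p = 0.0147), Fcgr2b (0.0221) and Fcgr3 (0.0221), 3 of 7 genes against 0.959% of all genes, and Fcer1g was at 0.0853. At 18 µg the 7 log2 changes lay between -0.23 and 0.05, and at 54 µg between -0.46 and 0.26. No gene was called at either dose, where 0.00536% and 0.0804% of all genes were called. The lowest value at 54 µg was that of Fcgr4, at 0.13, 0.19, 0.03, 0.28 and 0.11, below all 5 controls, which held for 0.933% of all genes. That difference of -0.46 ± 0.14 (SE) had a limma adjusted p of 0.26.

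These calls depended on how slides were handled. The arrays came from 19 slides scanned on 11 days, and 2 slides held both a control and a 162 µg NRCWE-030 array of day 1. With slide as a random block 4 genes passed the F-test. When slide was fitted as a fixed block, or scan day in its place, 0 passed, either by the F-test or at 162 µg, with log2 changes at 162 µg of 0.79 and 0.80 for Fcgr1, 0.90 and 0.85 for Fcgr2b, 0.58 and 0.58 for Fcgr3, and 0.35 and 0.38 for Fcer1g. Within the 2 slides the differences were 0.47 and 1.24 for Fcgr1, 0.55 and 1.14 for Fcgr2b, 0.26 and 0.78 for Fcgr3, and 0.04 and 0.47 for Fcer1g. Fcgr4 was further below control in these comparisons, at -0.52 with slide and -0.45 with scan day as a fixed block. Within the 2 slides, in the same order, it differed by -0.45 and -0.78. Ordinary in place of moderated statistics called 0 by the F-test and 3 at 162 µg. The share of all genes called was not counted under these settings. Whether the loss of calls was particular to these genes was therefore not tested.

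Single arrays mattered as well. Without the 162 µg array of replicate 1 or of replicate 2 the F-test called 0 genes, and without replicate 5 it called 1. At 162 µg, leaving out control replicate 2 left 1 gene called, and leaving out treated replicate 1 or 2 left 2 and 1. Fcer1g was lost in 11 of 20 such fits. Over them the change kept its sign for Fcgr1 (0.80 to 1.07), Fcgr2b (0.75 to 0.95), Fcgr3 (0.67 to 0.83), Fcer1g (0.46 to 0.75) and Fcgr4 (-0.24 to -0.10), the latter near -0.10 without control replicate 5 or treated replicate 1. The small values of Tyrobp and Syk changed sign under some settings.

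**Figure D2:**
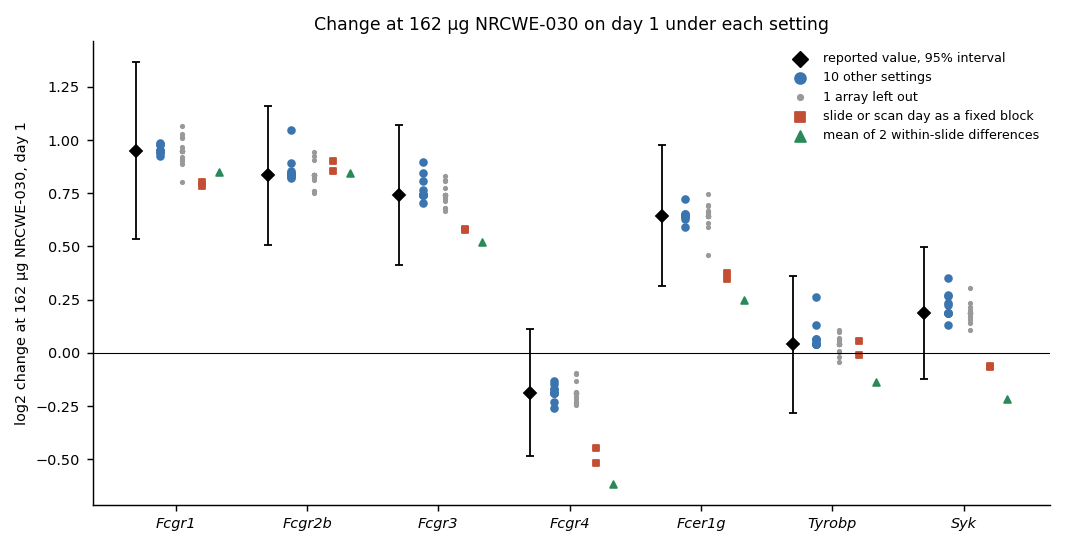
Log2 change at 162 µg NRCWE-030 on day 1 for each gene under each setting, with the reported value and its 95% interval in black. Fcgr1, Fcgr2b, Fcgr3 and Fcer1g stay above 0 and Fcgr4 below 0 under every setting drawn, while Tyrobp and Syk cross 0.

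After NRCWE-025, none of the 7 genes was called on day 1. The F-test called 0.0214% of all genes, and the 18, 54 and 162 µg contrasts called 0%, 0% and 0.209%. Fcgr2b had the largest value at 162 µg, a log2 difference of 0.45 ± 0.18 (SE, 95% interval 0.08 to 0.82, limma adjusted p = 0.296), and it was the 1 gene under an unadjusted p of 0.05 in that contrast and in the F-test, where 12.3% and 9.96% of all genes were. Its levels were -0.02, 0.04, 0.04, 1.09 and 0.32, so that replicate 4 stood well above the rest. The same mouse had the highest Fcgr1 (1.11) and Fcgr3 (1.41) of its group. At 162 µg Fcgr1 differed by 0.43, Fcer1g by 0.40, Fcgr3 by 0.29, Syk by 0.09, Tyrobp by 0.06 and Fcgr4 by -0.16. Without treated replicate 4 the difference was 0.14 for Fcgr1, 0.25 for Fcgr2b and 0.08 for Fcgr3, and without control replicate 1 that of Fcer1g was 0.21. Within the 2 slides shared with controls Fcgr2b differed by -0.22 and 0.25. All 5 treated arrays exceeded all controls for none of the 7 genes, against 0.879% of all genes.

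The materials were also compared directly. An F-test of the NRCWE-030 to NRCWE-025 difference, dose by dose, called none of the 7 genes on day 1 or day 28, against 0.161% and 0.236% of all genes. At 18, 54 and 162 µg taken singly 0 of the 7 were called as well, against 0.0482%, 0.059% and 0% of all genes on day 1 and 0%, 0.0804% and 0.0161% on day 28. At 162 µg on day 1 the difference was 0.52 for Fcgr1 (95% interval -0.10 to 1.15), 0.39 for Fcgr2b (0.04 to 0.74), 0.46 for Fcgr3 (0.08 to 0.83) and 0.25 for Fcer1g (-0.11 to 0.61). A call after NRCWE-030 and none after NRCWE-025 is therefore not a shown difference between the materials.

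**Figure D3:**
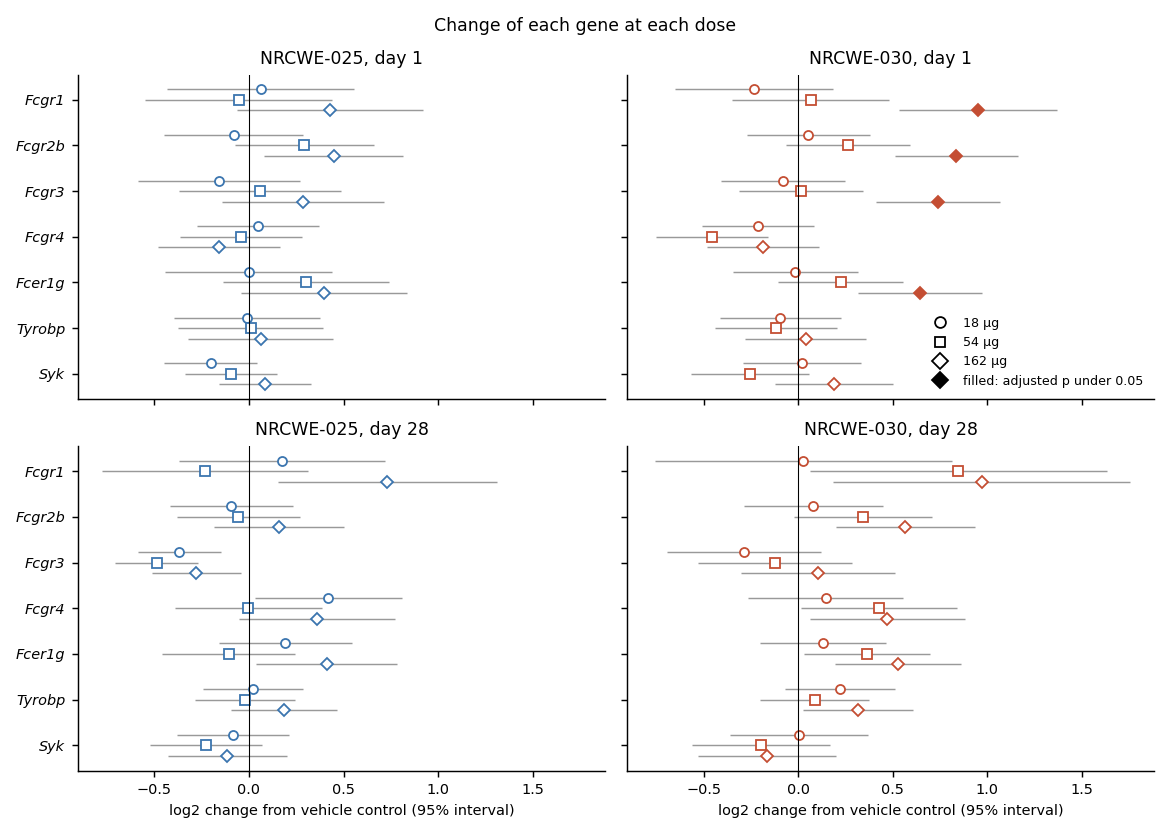
Log2 change from vehicle control with 95% intervals for the 7 genes at 18, 54 and 162 µg, by material and day. Filled symbols passed at an adjusted p under 0.05, and all 4 of them are 162 µg NRCWE-030 values of day 1.

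By day 28 no gene was called after either material. After NRCWE-030 the F-test called 0.102% of all genes and the 18, 54 and 162 µg contrasts 0.118%, 0.0536% and 0.0965%. After NRCWE-025 these shares were 0.0375%, 0.059%, 0.0268% and 0.0161%. At 162 µg NRCWE-030, 5 of the 7 genes were under an unadjusted p of 0.05 without passing the adjustment, where 7.51% of all genes were.

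Fcgr1 was the most variable. On day 28 it stood at -0.64, -0.41, -0.76, -0.61 and -0.93 in the controls and at -0.19, 0.78, 0.07, -0.65 and 1.51 after 162 µg NRCWE-030. At 54 µg NRCWE-030 its levels were 1.35, 1.03, -0.39, -0.70 and -0.39. Within that group 2 mice were far above the other 3, and the SD of 0.94 was the largest of the 14 groups for Fcgr1. The differences from control were 0.97 ± 0.38 at 162 µg (SE, limma adjusted p = 0.549) and 0.85 ± 0.38 at 54 µg (SE, limma adjusted p = 0.746). At 54 µg Fcgr1 was 1.08 higher after NRCWE-030 than after NRCWE-025 (95% interval 0.46 to 1.70, limma adjusted p = 0.208).

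Fcgr2b, Fcer1g and Fcgr4 differed by 0.57, 0.53 and 0.47 at 162 µg NRCWE-030 on day 28, with 3, 3 and 4 of 5 arrays above every control. Every treated array above every control was seen for none of the 7 genes after either material, against 1.09% of all genes for NRCWE-030 and 1.15% for NRCWE-025. Tyrobp differed by 0.32 and Syk by -0.17. After 162 µg NRCWE-025 the values were 0.73 for Fcgr1, 0.41 for Fcer1g and 0.36 for Fcgr4. Replicate 1 of this group of 4 stood at 1.09 for Fcgr1 and the other 3 arrays at -0.21, -0.14 and -0.48, and without it the differences were 0.39 for Fcgr1 and 0.21 for Fcgr4.

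Fcgr3 had values under control after NRCWE-025 on day 28, none of which passed the test. It stood at 0.38, 0.45, 0.43, 0.84 and 0.76 in the controls and at -0.08, 0.19, 0.08, 0.24 and -0.01 after 54 µg NRCWE-025, below all controls, which held for 0.649% of all genes. The difference was -0.49 ± 0.10 (SE, 95% interval -0.71 to -0.27) (limma adjusted p = 0.18). At 18 and 162 µg NRCWE-025 it differed by -0.37 and -0.28, with 4 of 5 and 3 of 4 arrays below every control. After 18, 54 and 162 µg NRCWE-030 it differed by -0.29, -0.12 and 0.10, so values under control were not limited to NRCWE-025. The control mean of Fcgr3 was 0.57 on day 28 and 0.29 on day 1.

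The change at 162 µg was then compared between days. None of the 7 genes was called for NRCWE-025 or NRCWE-030, against 0.059% and 0.198% of all genes. For NRCWE-030 the day 1 change minus the day 28 change was -0.02 for Fcgr1, 0.27 for Fcgr2b, 0.64 for Fcgr3 (95% interval 0.11 to 1.17) and -0.66 for Fcgr4 (95% interval -1.18 to -0.14). The controls themselves gave no call between days, against 0.0375% of all genes, and their largest difference was 0.28 for Fcgr3, higher on day 28. In all, limma called none of the 7 genes in 25 of 27 comparisons. Of the 25, 6 were differences between the materials at 1 dose and day, and 8 of their 42 tests of a gene were under an unadjusted p of 0.05, against 6.28% over all genes. The other 19 held 133 tests of a gene, of which 28 were under an unadjusted p of 0.05, against 7.88% over all genes, and ordinary statistics called 0 of the 133.

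Ordered over the 14 groups, Fcgr1, Fcgr2b, Fcgr3, Fcer1g and Syk had their highest mean at 162 µg NRCWE-030 on day 1, and Fcgr4 and Tyrobp at 162 µg NRCWE-030 on day 28. The group means of Fcgr1 ran from -0.90 to 0.47, of Fcgr2b from -0.27 to 0.68, of Fcgr3 from 0.08 to 1.03, of Fcer1g from -0.18 to 0.54, of Fcgr4 from 0.15 to 1.00, of Tyrobp from 1.91 to 2.30 and of Syk from 0.99 to 1.44. Of the 91 pairs of neighbouring group means in these orders, 0 differed by more than the larger SD of the pair. Sorting brings neighbouring means close, and the SD is that of single arrays. This count therefore does not test whether groups differ.

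Fcgr2b, Fcgr4 and Fcgr3 follow each other on chromosome 1, and 7 tested genes lie between Fcgr3 and Fcer1g. Of 15 tested genes in and beside this stretch, 11 were not among the 7 genes described. At 162 µg NRCWE-030 on day 1, 0 of these 11 were called, which is near the 1.71% of all genes called. The nearest was Fcrla, a B cell Fc receptor-like gene beside Fcgr2b, at a log2 difference of -0.60 (limma adjusted p = 0.071).

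Some other receptors that use these adaptors rose in the same contrast, in which 1.23% of all genes were called higher. Of 9 tested receptors that pair with Fcer1g, 2 rose, the C-type lectins Clec4d by 1.30 ± 0.20 and Clec4n by 1.21 ± 0.22 (SE, limma adjusted p = 0.00259 and 0.00646), and 7 of the 9 did not pass. The list median was 0.18 against 0.00 over all genes. Of 8 tested receptors that pair with Tyrobp, 4 rose, namely Pilrb1 by 0.95, Trem2 by 0.65, Trem1 by 0.60 and Clec5a by 0.45 on the log2 scale. The other 4 did not pass and the list median was 0.38, while Tyrobp itself did not pass.

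Downstream, against the same 1.23% of all genes, 2 of 18 tested genes of activating Fc receptor signalling rose, the exchange factor Vav1 by 0.62 and the adaptor Lat2 by 0.43. Of 11 genes of inhibitory signalling 1 rose, the adaptor Dok2, by 0.89. Of 12 other Fc receptors 0 were called at 162 µg, and Fcmr, the IgM receptor, passed the F-test alone with a difference of -0.63 at 162 µg. The differences of this list ran from -0.63 to 1.00, with 6 of the 12 above 0. Of the immunoglobulin chains Jchain alone was tested, at -0.12. After 162 µg NRCWE-025 on day 1 the one call among these lists was Lcp2, an adaptor downstream of Syk, by 0.50. Between days, Clec4d differed by 1.60 for NRCWE-030 (limma adjusted p = 0.0454), higher on day 1.

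Markers of immune and lung structural cells, among them cells that carry these receptors, were measured on the same arrays. At 162 µg NRCWE-030 on day 1, 1.23% of all genes were called higher and 89 of 18656 were called lower. A list this short without a call is near these shares. Of 11 macrophage and monocyte markers 1 was called higher, Itgam by 0.46. Of the 11, 7 were above 0, with a median log2 difference of 0.06 and a lowest of -0.21. The highest was 1.03, which did not pass. The mean log2 ratio over the list ran from 1.58 to 1.97 in controls and from 1.81 to 2.03 in treated lungs. Of 9 neutrophil markers 1 was called, Csf3r by 1.25, with ranges of 1.63 to 1.89 and 1.80 to 2.23 over the list. Of the 9, 6 were above 0, with a median log2 difference of 0.07 and a lowest of -0.34. Csf3r also differed between days, its change being 1.55 higher on day 1 (limma adjusted p = 0.0419). Pan-leukocyte markers gave 0 of 5 calls and ranges of 0.55 to 1.1 and 0.88 to 1.1. Of 7 B cell markers 1 fell, Cd22 by 0.39 on the log2 scale, with ranges of 0.37 to 0.92 and 0.18 to 0.55. No dendritic, NK or T cell, mast cell, eosinophil or lung structural marker was called (0 of 7, 7, 8, 7, 5 and 10). Of the 10 lung epithelium and endothelium markers 2 were above 0, with a median log2 difference of -0.31, a lowest of -0.67 and mean ratios over the list of 5.15 to 5.83 in controls and 5.07 to 5.61 in treated lungs. Of the 7 mast cell and basophil markers 1 was above 0, with a median of -0.21 and ranges of 1.22 to 1.77 and 1.16 to 1.28. Every tested marker was above background on at least 1 array, and the neutrophil markers Ngp and Camp were so on 20 and 33 of 69. Only 1 of 5 eosinophil and 4 of 7 mast cell and basophil markers were so on most arrays. This held for 5 of 7 dendritic cell, 5 of 7 B cell and 7 of 9 neutrophil markers, and for all markers of the other cell lists. The part of these cells in the rise of the Fc receptors was not tested.

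**Figure D4:**
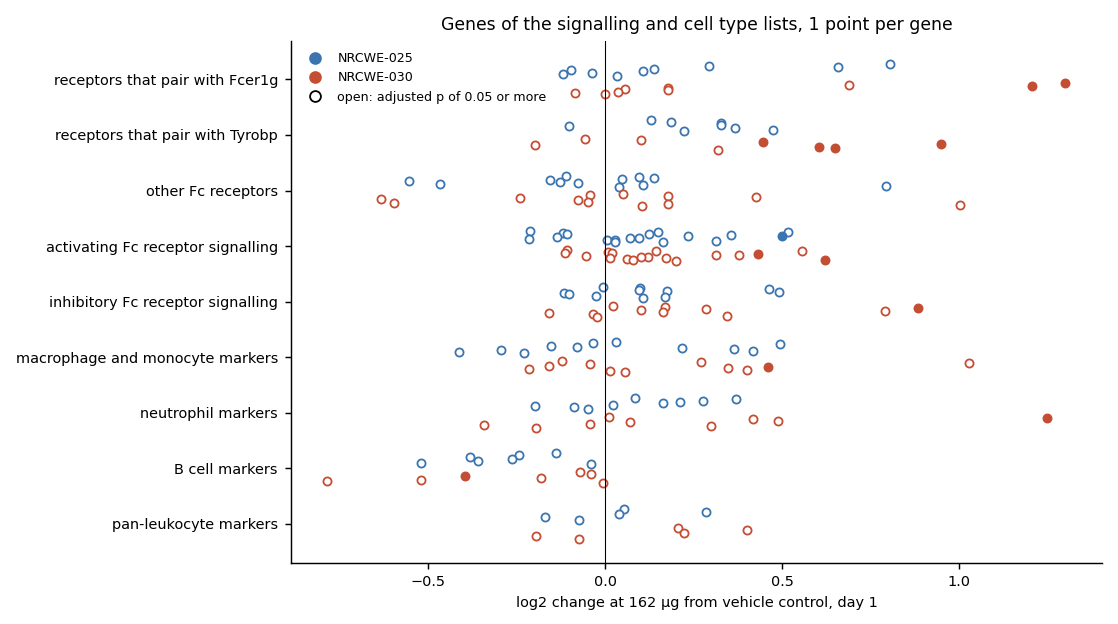
Log2 change at 162 µg on day 1 for each gene of the adaptor-partner, signalling and cell marker lists, NRCWE-025 in blue and NRCWE-030 in red. Filled points passed at an adjusted p under 0.05; Clec4d, Csf3r and Clec4n lie furthest to the right, above 1.2.

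The genes whose 12 dose changes lay closest to those of each F-test call were listed as a description. For Fcgr1 they were Oas1f, Apol9b and Rtp4, with mean absolute differences of 0.12, 0.13 and 0.15 log2 units against a median of 0.42 over 13699 genes. For Fcgr2b they were Cd302, Ifi204 and Slc7a8 (0.08, 0.09 and 0.09, against a median of 0.30). For Fcgr3 they were Mcm3, Ran and Rasl2-9 (0.10, 0.10 and 0.11, against a median of 0.27). The 12 changes share their control arrays by day.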

How the data were processed

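Lung RNA (Cy5) was hybridised with a universal mouse reference RNA (Cy3) on 2-colour Agilent 44K arrays, without dye swap. The deposited scanner files (Agilent Feature Extraction 11.0.1.1) hold signal and background intensity per spot, log10 ratios made by the scanner software and flags (other columns), and the authors' value table holds log2 ratios. In R 4.3.3 with limma 3.58.1, local backgrounds marked as outliers by the scanner software were replaced by the median of the unmarked ones, corrected by normexp (offset 50) and normalised by loess within arrays. Spots and probes were summarised by the median, giving 18656 genes; 66.7% of 41174 probes had a symbol, from RefSeq. limma was fitted per material and day (control and 3 doses) or over 14 groups, with Benjamini-Hochberg adjustment over all genes at 0.05, and the p-values of pairs of genes came from exact permutation. Named genes were the 7 described, listed genes called by an F-test or at 162 µg (the 4 largest changes per list), and the 3 genes closest to each F-test call. The genes, lists and background correction were chosen with earlier results of these data known. Alternatives were other background corrections, values, scaling, filters, summaries, blocks, ordinary statistics and leaving out arrays. Figures were drawn with matplotlib.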

Additional observations from a re-analysis of the deposited data

Results flagged for a closer look

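Of 98 gene and group combinations tested for 1 array standing apart, 5 were marked, where chance gives about 1 in 20. These were Fcgr2b at -0.61 in replicate 1 of 54 µg NRCWE-025 on day 28 (lowest), Fcer1g at -0.68 in replicate 1 of 18 µg NRCWE-025 on day 1 (lowest), Fcer1g at -0.58 in replicate 5 of 54 µg NRCWE-025 on day 28 (lowest), Tyrobp at 2.40 in replicate 2 of 162 µg NRCWE-030 on day 1 (highest), and Syk at 1.42 in replicate 2 of 54 µg NRCWE-025 on day 1 (highest).

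Fcgr4 after 54 µg NRCWE-030 differed from control by -0.46 on day 1, with every array under the control mean, and by 0.43 on day 28, with every array over it. The difference between days at this dose was not tested.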

How the results depend on the processing

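Counts of genes called were recomputed under 12 alternatives and with each of 69 arrays left out. Of 252 counts under the alternatives 247 were the same or within 1.5 times. Most of these were counts of 0 that stayed at 0, since 19 of the 21 comparisons had no gene called. The 5 that changed all fell to 0, in comparisons with calls. For NRCWE-030 on day 1 the F-test count of 3 became 0 with slide as a fixed block, 0 with scan day as a fixed block and 0 with ordinary statistics, and the count of 4 at 162 µg became 0 with either fixed block. Both the residual degrees of freedom and the log2 changes differ under the fixed blocks. What ended the calls was not tested. With 1 array left out these counts ran from 0 to 4 and from 1 to 4. The share of all genes called was not counted under the alternatives or with arrays left out. No called change reversed. Among uncalled changes at 162 µg, with slide as a fixed block Fcgr4 after NRCWE-025 on day 1 became 0.091, Syk after NRCWE-030 became -0.066 on day 1 and 0.10 on day 28, and Fcgr2b after NRCWE-025 on day 28 became -0.10. With scan day as a fixed block Tyrobp and Syk after NRCWE-030 on day 1 became -0.0076 and -0.063, Syk on day 28 became 0.10 and Fcgr2b after NRCWE-025 on day 28 became -0.10. With backgrounds as deposited Tyrobp and Syk after NRCWE-025 on day 1 became -0.041 and -0.14. With 1 array left out, Tyrobp ran from -0.061 to 0.204 after NRCWE-025 and from -0.042 to 0.106 after NRCWE-030 on day 1, and Fcgr3 after NRCWE-030 on day 28 ran from -0.015 to 0.219. Of 84 mean differences within slides, 69 lay within 1 median SD between arrays of a group from the fitted change. The 15 others included the called change of Fcer1g at 162 µg NRCWE-030 on day 1, 0.25 within slides against 0.64. Fcgr4 at -0.61 against -0.19 and Syk at -0.22 against 0.19 in that contrast were also among them, whereas Fcgr1, Fcgr2b and Fcgr3 were not. Replicate numbers were given in accession order and pair no samples, so they were not used as a block, and slide, which holds treated and control arrays together, was used in their place.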
